A study of Mus musculus with 2 samples.

Results

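The cells described here are fibroblast-like cells of denervated mouse muscle that carried Apod together with Tenm2 or Col28a1 transcripts, and they were labelled as nerve-sheath-like. They were chosen by raw counts of unique molecular identifiers (UMIs, each counting 1 captured transcript): a barcode needed at least 2000 UMIs, under 10% mitochondrial UMIs, at least 3 Apod UMIs, at least 2 UMIs of Tenm2 and Col28a1 added together, no UMI of the Schwann cell genes Cdh19 and Sox10 or of the tendon genes Tnmd, Kera and Chad, and more UMIs of the collagen and decorin genes Col1a2, Col3a1 and Dcn than of the myeloid genes Tyrobp and Fcer1g. Of the 36400 barcodes of the library, 18579 passed the depth and mitochondrial limits and 90 of these were members, a share of 0.484% (exact binomial 95% interval 0.390 to 0.595%). Because these measured values chose the members, the levels of the 13 rule genes are a description and support nothing.

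The library came from hind limb muscle (tibialis anterior and gastrocnemius) of S100GFP-tg mice labelled as wild type, in which the S100B promoter drives GFP. The muscle was taken 7 days after sciatic nerve crush (7 dpi) from males of 2 months. Viable GFP+ cells were sorted and sequenced as 1 droplet library with 3′ tags, and no counts of the GFP- library were analysed here. How many animals were pooled is not certain, since the methods speak of several males and the series text of 1 injured mouse. With 1 library there was no replicate, so no comparison below carries a test, and every interval covers counting error only. The 39531 barcodes of the GFP- library shared 372 sequences with this library, and 0 of these belonged to a member.

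A peripheral nerve, including its branches inside muscle, is wrapped in layers of connective tissue. Endoneurial fibroblasts lie among the axons, flattened perineurial cells joined by tight junctions enclose each fascicle and form a diffusion barrier, and epineurial fibroblasts form the outer coat that continues into the loose connective tissue around vessels and muscle. Perineurial cells are known for the tight junction protein claudin 1 (Cldn1) and the glucose transporter GLUT1 (Slc2a1), and endoneurial fibroblasts for the transcription factors Etv1 and Sox9.

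Apod encodes apolipoprotein D, a lipocalin that carries small lipids. Tenm2 encodes teneurin 2, a transmembrane adhesion protein that binds latrophilins. Col28a1 encodes the chain of a collagen known from peripheral nerve, Nr2f2 encodes the nuclear receptor COUP-TFII, and Spp1 encodes osteopontin, a secreted matrix protein. By their Ensembl identifiers in the GRCm39 annotation these genes lie at chr16:31115010-31135355 (Apod), chr11:35897483-37126791 (Tenm2), chr6:7997102-8192617 (Col28a1), chr7:70001692-70016519 (Nr2f2) and chr5:104582165-104589235 (Spp1). The first 4 are on the minus strand and Spp1 is on the plus strand.

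The gate did not hold 1 kind of cell. Only 35 members carried any Tenm2 UMI (here called Tenm2 cells, 19 of them with Col28a1 and 16 without), while 55 carried Col28a1 without Tenm2 (Col28a1-only cells). The split was chosen after the values were seen. Tenm2 cells held Nr2f2, claudin 1 and other perineurial genes and little of the adventitial genes, whereas Col28a1-only cells, of which 37 of 55 had at least 5000 UMIs, lay in many clusters and held Cxcl14 and Smoc2 mainly in 16 cells of 1 cluster, at 65.3 CPM of perineurial genes in all (CPM is UMIs of a gene per 1000000 UMIs of the group). The perineurial markers were thus high in the Tenm2 cells, foremost in those without Col28a1, and not in the Col28a1-only cells, so the nerve-sheath-like label is not used for the latter.

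The rule rested almost wholly on Tenm2 and Col28a1. Apod of 3 or more UMIs was met by 4396 of the 18579 barcodes, and only 179 met the condition on Tenm2 and Col28a1. A further 2725 barcodes met every condition but that one, 109 of them with 1 UMI and 2616 with none, and 39 members stood exactly at 2 UMIs. Only 9 barcodes failed on Apod alone, with 0 UMIs in 1, 1 UMI in 4 and 2 UMIs in 4, and 4 members stood at 3 Apod UMIs. Schwann genes alone kept 44 barcodes out, tendon genes 24, and the comparison with myeloid genes 0.

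A cut on raw UMIs favors deep cells, and the depth of the members differed from that of other cells. The 90 members had a median of 8423 UMIs (2098 to 40037), against 2974.5 in the 5618 other stromal cells, which met the same limits on depth and on Schwann, tendon and myeloid genes, had at least 10 UMIs of Col1a2, Col3a1 and Dcn and were not members. Tenm2 cells had a median of 4981 UMIs and Col28a1-only cells 14452. When every cell was thinned to 2000 UMIs before the rule, 39 cells qualified, of which 32 were members as deposited, 13 of them Tenm2 cells and 19 Col28a1-only cells. Levels among cells of at least 5000 UMIs (17 Tenm2 cells, 37 Col28a1-only cells and 1375 other stromal cells, called deep cells) are therefore given beside the main values.

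**Figure D1:**
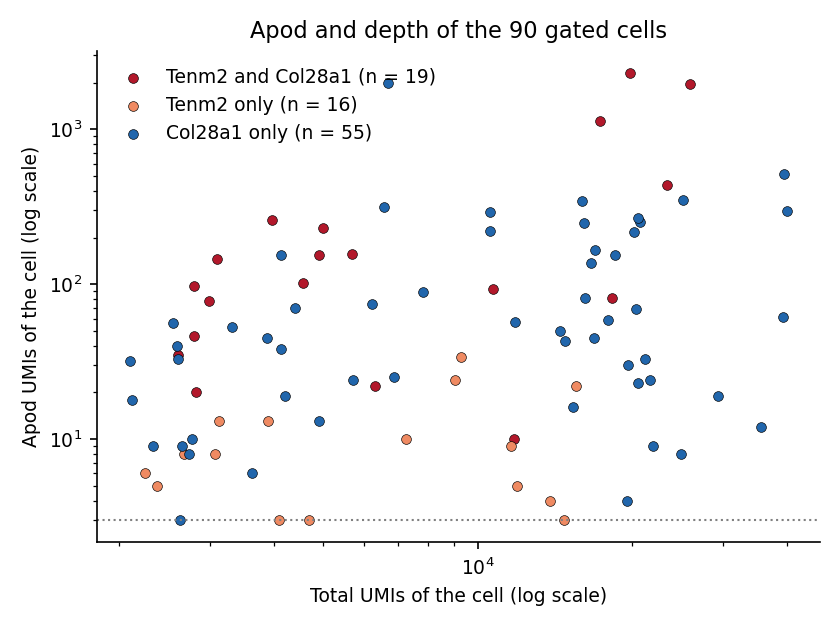
Apod UMIs (y, log scale) against total UMIs (x, log scale) of each of the 90 gated cells, coloured by which of Tenm2 and Col28a1 was present. The dotted line is the limit of 3 Apod UMIs. Cells with Tenm2 but no Col28a1 stay at 3 to 34 Apod UMIs at every depth, and the 4 cells above 1000 Apod UMIs all carry Col28a1.

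Apod ranged over almost 3 orders of magnitude among members. The summed level was 14125 CPM in members against 1414 CPM in other stromal cells, 34.5 CPM in cells gated as macrophages (at least 10 Tyrobp and Fcer1g UMIs, and more than stromal UMIs) and 7360 CPM in cells gated as Schwann cells (at least 3 Cdh19 and Sox10 UMIs). In Tenm2 cells the lowest, median and highest counts were 3, 24 and 2305 UMIs, in Col28a1-only cells 3, 45 and 1981 UMIs, so that the groups overlapped over nearly the whole range. A total of 26 members had 100 or more Apod UMIs and 4 had 1000 or more.

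Tenm2 and Col28a1 were seen in few cells outside the gate. After thinning to 2000 UMIs, Tenm2 was seen in 17 of 35 Tenm2 cells, in 0.641% of other stromal cells, in 8.87% of Schwann-gated cells and in 0.0414% of macrophage-gated cells, a class that should lack it (median depth 10475 UMIs before thinning). Col28a1 was seen in 61.8% of Col28a1-only cells, 34.3% of Tenm2 cells, 1.23% of other stromal cells and 7.26% of Schwann-gated cells. Other stromal cells are low in both genes in part by definition, since they are not members. The 129 Tenm2 UMIs of the members lay 14 at most in 1 cell, and of the 300 Col28a1 UMIs the 55 Col28a1-only cells held 206, a level of 275 CPM against 320 CPM in Tenm2 cells.

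Nr2f2 and Spp1, named with the label but not part of the rule, stood more than 2-fold higher in members. The Spp1 ratio of 4.03 rested on few cells, since 5 of the 90 held 315 of the 394 Spp1 UMIs. Nr2f2 stood at 179 CPM (154 to 207) in members and 54.0 CPM in other stromal cells, a ratio of 3.32 (2.84 to 3.86). That ratio came from the Tenm2 cells, which held 150 of the 187 Nr2f2 UMIs at 510 CPM (432 to 599), while Col28a1-only cells at 49.3 CPM (34.7 to 68.0) matched other stromal cells within the interval. Among deep cells Nr2f2 was 577, 44.8 and 53.2 CPM in the Tenm2, Col28a1-only and other stromal cells. Nr2f2 was not particular to them, since Schwann-gated cells held 320 CPM and endothelial-gated cells low in stromal genes (at least 3 Pecam1 and Cdh5 UMIs and under 10 UMIs of Col1a2, Col3a1 and Dcn) 199 CPM.

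Over all genes with a mean of at least 10 CPM, 320 of 8781 (3.64%) were higher by 2-fold or more in members than in other stromal cells and 326 (3.71%) were lower. A gene under 6.67 CPM in 1 of the groups could reach that mean only by differing by 2-fold, so 72 of the 320 and 50 of the 326 calls were fixed by the limit itself, and such genes are named beside the lists below. Among deep cells the counts were 387 (4.46%) and 339 (3.9%) of 8685. The 15 highest ratios among genes seen in at least 20% of members were those of Smim41, Fetub, Inhba, Itga6, Dio3, Lepr, Clec1a, Ldhb, Rdh10, Kng2, Barx2, Ednra, Ccn2, Cxcl14 and Tmem64, from 10.4 down to 4.44. These genes came from both kinds of cell, and few of them were high in both.

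On the side of the Tenm2 cells were Itga6, the laminin-binding integrin alpha 6, Lepr, the leptin receptor, Clec1a, a C-type lectin receptor, and Ldhb, a lactate dehydrogenase subunit. Itga6 stood at 289 CPM in Tenm2 cells, 5.33 CPM in Col28a1-only cells and 10.9 CPM in other stromal cells. Lepr stood at 259, 40.0 and 16.6 CPM, and Clec1a at 177, 13.3 and 9.74 CPM in the same order. Each of these ratios was carried by many cells: Itga6 was seen in 16 of the 35 Tenm2 cells and its highest cell held 20.0% of the UMIs.

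On the side of the Col28a1-only cells were Dio3, the deiodinase that inactivates thyroid hormone, Barx2, a homeobox factor, Ednra, the endothelin A receptor, Ccn2, the matricellular connective tissue growth factor, and the chemokine Cxcl14. Cxcl14 stood at 6193 CPM (6016 to 6373) in Col28a1-only cells, 987 CPM in Tenm2 cells and 1049 CPM in other stromal cells. Ccn2 stood at 1215, 105 and 198 CPM, and Dio3 at 117, 20.4 and 11.6 CPM. These levels were uneven within the Col28a1-only cells, since 16 of them that shared a cluster (cluster 9) held 3022 of the 4647 Cxcl14 UMIs, 624 of the 912 Ccn2 UMIs and 73 of the 88 Dio3 UMIs. When only members with Tenm2 were kept, the ratio of Ccn2 to other stromal cells turned to −0.91 and that of Cxcl14 to −0.089 on the log2 scale, from 2.19 and 2.17.

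Fetub, which encodes the liver-type protease inhibitor fetuin B, Rdh10, a retinol dehydrogenase, and Inhba, the activin A subunit, were high in both. Fetub stood at 171 CPM in Col28a1-only cells and 88.5 CPM in Tenm2 cells, against 16.3 CPM in other stromal cells, although only 5 Tenm2 cells carried it. Rdh10 stood at 189 and 446 CPM against 45.4 CPM, and Inhba at 45.3 and 95.3 CPM against 7.20 CPM. Smim41 stood at 74.6 and 177 CPM against 9.90 CPM.

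The 10 genes with the lowest ratios were Opcml, Tlr2, C7, Mir142hg, Eln, Slco3a1, Cd53, H2-DMa, Rab7b and Hdac9, at ratios from 0.123 to 0.322. Opcml, an adhesion protein of the IgLON family, stood at 33.5 CPM in members and 273 CPM in other stromal cells, and all 35 of its UMIs were in 8 Col28a1-only cells. Complement C7 stood at 41.2 against 155 CPM and elastin (Eln) at 91.9 against 333 CPM. Tlr2, Cd53, H2-DMa, Rab7b, Hdac9 and the Mir142 host gene are known from leukocytes and were all at over 200 CPM in macrophage-gated cells. The summed 15 macrophage markers moved with them, at 3981 CPM in members and 6800 CPM in other stromal cells, with 0 of the 15 at 0, and at 3215 CPM in Tenm2 cells and 4282 CPM in Col28a1-only cells. Among deep cells the same sums were 603 CPM in Tenm2 cells, 3941 CPM in Col28a1-only cells and 2395 CPM in other stromal cells. Only 6 of the 37 deep Col28a1-only cells held 2637 of the 2730 macrophage UMIs behind that value, and the other 31 stood at 180 CPM. In the Tenm2 cells 140 of the 945 macrophage UMIs lay in the 17 deep cells and the rest in the 18 shallower ones. Among deep cells Cd53 was no longer lower by 2-fold in members (ratio 0.571, 0.310 to 0.967). The part of macrophage RNA in these 6 genes was not tested.

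The Tenm2 and Col28a1-only cells were also compared with each other. Of 3418 genes with a mean of at least 50 CPM, 224 were higher by 2-fold or more (6.55%) and 307 lower (8.98%) in Tenm2 cells. For genes under 33.3 CPM in 1 group the limit itself fixed the call, in 72 of the 224 and 66 of the 307. Against other stromal cells the same limit gave 220 higher (6.41%) and 289 lower (8.42%) of 3431 genes for Tenm2 cells. For Col28a1-only cells it gave 101 higher (3.07%) and 67 lower (2.03%) of 3293 genes. The limit fixed 71, 69, 19 and 11 of these calls in that order. Tenm2 cells had 293939 UMIs in all and Col28a1-only cells 750415, so counting error was larger in Tenm2 cells. Among deep cells the Tenm2 cells had 289 genes higher (8.46%) and 348 lower (10.2%) than other stromal cells. Against deep Col28a1-only cells they had 298 higher (8.75%) and 365 lower (10.7%). The limit fixed 94, 101, 93 and 107 of these calls in that order. Against Schwann-gated cells, the Tenm2 cells had 326 genes higher (8.73%) and 543 lower (14.5%) of 3734, of which the limit fixed 64 and 188.

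**Figure D2:**
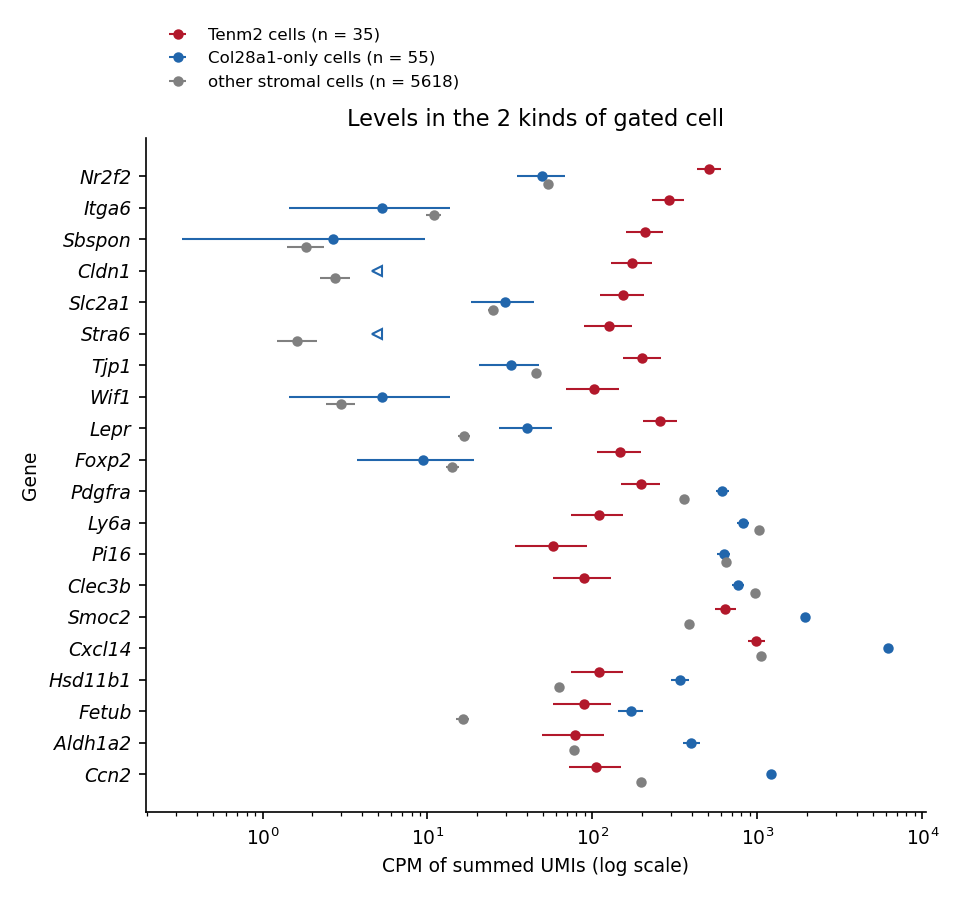
Level of 20 genes in CPM (log scale) in Tenm2 cells, Col28a1-only cells and other stromal cells. Points are the CPM of summed UMIs, bars the exact Poisson 95% interval, and open triangles the upper limit of a group with 0 UMIs. Nr2f2 to Foxp2 lie far to the right in Tenm2 cells, and Smoc2, Cxcl14, Hsd11b1, Aldh1a2 and Ccn2 do so in Col28a1-only cells. Fetub is high in both kinds of cell.

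Perineurial genes were high in the Tenm2 cells. All 11 listed perineurial genes had UMIs in them and stood above other stromal cells, with a median log2 ratio of 4.74 beside 0.18 over all genes with UMIs in both groups. Their sum was 793 CPM (694 to 901), against 83.9 CPM in other stromal cells, 342 CPM in Schwann-gated cells and 362 CPM in endothelial-gated cells low in stromal genes, and 26 of the 35 cells carried at least 1 of their UMIs. Only 3 of the 11 (Cldn1, Slc2a1 and Tjp1) passed the limit of 50 CPM, all as higher, beside 6.41% of all genes. For Cldn1 and Slc2a1, under 33.3 CPM in other stromal cells, that call was fixed by the limit. In Col28a1-only cells 7 of the 11 were at 0 (Cldn1, Krt19, Moxd1, Casq2, Msln, Lypd2 and Perp), and the median log2 ratio of the other 4 was −0.28.

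Claudin 1 was the clearest of them. It stood at 174 CPM (129 to 228) in Tenm2 cells, where 17 of 35 cells carried it with 11 UMIs at most, at 2.76 CPM in other stromal cells and at 20.5 CPM in Schwann-gated cells. The Col28a1-only cells held 0 Cldn1 UMIs of 750415, so the level in Tenm2 cells was at least 43.4-fold higher against a floor of 3 counts over the group. GLUT1 (Slc2a1) stood at 153 CPM in Tenm2 cells, 29.3 CPM in Col28a1-only cells and 25.04 CPM in other stromal cells, and the tight junction scaffold Tjp1 at 201, 32.0 and 45.4 CPM. Itgb4, the hemidesmosome integrin subunit that pairs with Itga6, stood at 47.6 CPM in 8 Tenm2 cells, 1.33 CPM in Col28a1-only cells and 2.94 CPM in other stromal cells.

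Several further genes outside the list followed the same cells and were chosen after their values were seen. Sbspon, a secreted protein with somatomedin B and thrombospondin domains, stood at 208 CPM in 16 Tenm2 cells and 2.67 CPM in 2 Col28a1-only cells. Stra6, the retinol uptake receptor, stood at 126 CPM in 13 Tenm2 cells and at 0 in Col28a1-only cells, at least 31.5-fold lower. The forkhead factor Foxp2 stood at 146 and 9.33 CPM, and the carboxypeptidase Cpe at 225 and 17.3 CPM. Among deep cells each of these 4 genes kept a ratio of Tenm2 to Col28a1-only cells of at least 13.5.

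Endoneurial genes were less clear. In members, 7 of the 8 listed genes had UMIs and all 7 stood above other stromal cells, with a median log2 ratio of 0.64 beside 0.07 over all genes. Of the 6 that passed 10 CPM (3.64% of all genes were higher), Wif1, a secreted Wnt inhibitor, and Etv1 were higher by 2-fold or more, at 32.6 against 3.00 CPM (a call fixed by the limit) and 43.1 against 16.9 CPM, and Ptgds had no UMI in members. Wif1 lay in 8 Tenm2 cells with 30 UMIs and in 4 Col28a1-only cells with 4, while Etv1 stood at 51.0 and 40.0 CPM in them. Neither the list nor Wif1 was particular to these cells. Cells gated as tenocytes (at least 3 UMIs of Tnmd, Kera and Chad) held 811 CPM of the list against 345 CPM in members. After thinning, Wif1 was seen in 39.1% of tenocyte-gated cells, 20.0% of Tenm2 cells and 5.56% of members. Each group was thinned in its own random draw, so the share of a group need not match that of its parts. Other stromal cells hold no tendon-gene cell by their definition. Sox9 did not part the groups, at 47.9 CPM in members and 38.2 CPM in other stromal cells.

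Adventitial and epineurial genes were low. None of the 8 was higher in members and 4 were lower by 2-fold or more (Dpp4, Sema3c, Pcolce2 and Cd55, beside 3.71% of all genes), with a median log2 ratio of −1.03. In Tenm2 cells all 8 were lower (8.42% of all genes), 3 of them by calls that the limit of 50 CPM fixed (Dpp4, Pcolce2 and Sfrp2), with a median log2 ratio of −3.47, and the summed level was 316 CPM (255 to 388) against 2315 CPM in Col28a1-only cells, 3247 CPM in other stromal cells and 5863 CPM in cells gated on Pi16 and Dpp4. Pi16, a peptidase inhibitor of adventitial fibroblasts, stood at 57.8 CPM in Tenm2 cells and 624 CPM in Col28a1-only cells.

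General fibroblast genes were lower in Tenm2 cells in part. Of the 12 listed, 3 are rule genes, and of the 8 others that passed 50 CPM 3 were lower by 2-fold or more (Ly6a, Gsn and Mfap5) and 0 higher, beside 8.42% and 6.41% of all genes, with a median log2 ratio of −0.87. The sum over the list was 21052 CPM in Tenm2 cells, 40913 CPM in Col28a1-only cells and 38917 CPM in other stromal cells. It includes the rule genes Dcn, Col1a2 and Col3a1, so it is a description only. Ly6a (Sca-1) stood at 109, 820 and 1029 CPM in the same order, and Pdgfra, the receptor used to define muscle fibroblasts, at 197, 613 and 360 CPM. Cd34 stood at 391, 334 and 409 CPM, and the proteoglycan lumican (Lum) at 1555, 1918 and 845 CPM. Outside the list, and chosen after their values were seen, the matrix gene dermatopontin (Dpt) stood at 23.8, 482 and 857 CPM, and the oxidase gene Nox4 had 0 UMIs of 293939 in Tenm2 cells against 280 CPM in Col28a1-only cells.

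**Figure D3:**
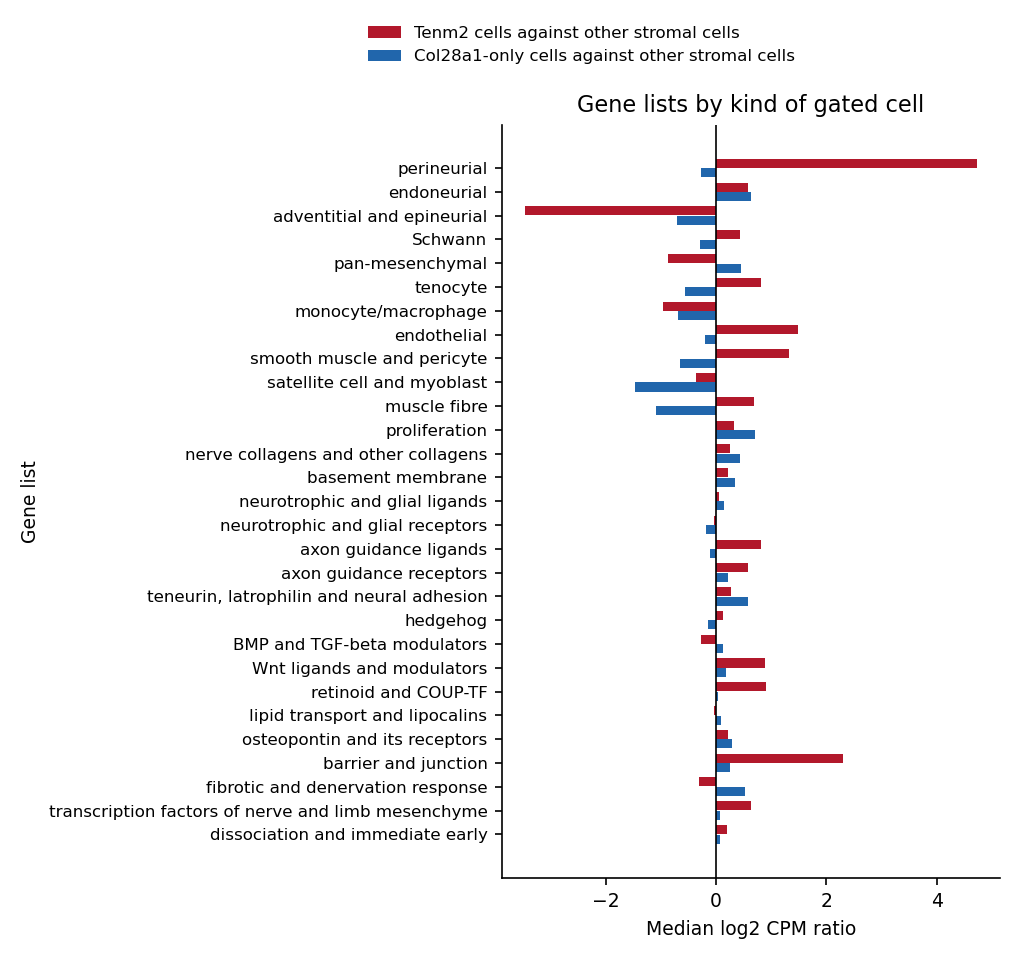
Median log2 CPM ratio of each gene list against other stromal cells, over the listed genes with a UMI in both groups, for Tenm2 cells and Col28a1-only cells. The zero line is equality. The list of Apod, Tenm2, Col28a1, Nr2f2 and Spp1 and the lists of blood cells other than macrophages are not drawn. The perineurial list reaches 4.74 and the adventitial and epineurial list −3.47 in Tenm2 cells, while the lists of the Col28a1-only cells stay between −1.46 and 0.72.

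Within the Tenm2 cells, those with and without Col28a1 differed again. The 19 cells with Col28a1 had 10 to 2305 Apod UMIs with a median of 102, and the 16 without had 3 to 34 with a median of 8, so the ranges overlapped only between 10 and 34. Their Apod levels were 42098 and 1426 CPM, and both groups had like median depths of 4981 and 5966 UMIs. The split again was seen in the data first, and Apod is a rule gene.

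The cells without Col28a1 held most of the perineurial transcripts, 178 of 233 UMIs. Their summed perineurial level was 1493 CPM (1281 to 1729) against 315 CPM (237 to 410) in the cells with Col28a1, a level no higher than that of Schwann-gated cells. Slc2a1 stood at 310 against 45.8 CPM, Itga6 at 495 against 149 CPM and Tjp1 at 352 against 97.3 CPM. The Wnt inhibitor Sfrp5 was found in 7 of the 16 cells at 612 CPM, its highest cell at 35 of 73 UMIs, and Lypd2 in 4 cells with 20 UMIs and the axon guidance protein netrin G1 (Ntng1) in 4 cells with 45 UMIs, 28 and 15 of them in 2 cells, whereas the cells with Col28a1 held 0 UMIs of all 3.

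The cells with Col28a1 held instead Wif1 (29 UMIs in 7 cells, against 1 UMI), Pdgfra (309 against 33.5 CPM) and the basement membrane collagen Col15a1 (613 against 50.3 CPM, although 46 of its 107 UMIs lay in 1 cell). Foxd1, a forkhead factor, had 20 UMIs in 8 of these cells against 4 UMIs in 1 cell. Claudin 1 did not part them, at 137 and 226 CPM with a ratio of 0.607 (0.335 to 1.09), and neither did Sbspon at 195 and 226 CPM.

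The same held among deep cells, 9 with and 8 without Col28a1. Itga6 ranged from 0 to 10 UMIs with a median of 2 in the 9 cells and from 1 to 17 with a median of 6 in the 8, and Slc2a1 from 0 to 3 with a median of 0 and from 0 to 12 with a median of 2. Wif1 was present in 4 of the 9 cells, those with 435 to 2305 Apod UMIs, and in 0 of the 8. Nr2f2 was found in 8 of the 9 and in all 8. The ranges of Itga6 and Slc2a1 overlapped, while summed perineurial genes stood at 345 CPM (254 to 457) in the first and 1848 CPM (1582 to 2145) in the second.

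A grouping that did not use the rule genes placed most Tenm2 cells together. Leiden clustering of 8001 stromal and Schwann-gated cells on genes other than the 13 rule genes gave 28 clusters, of which 1 of 172 cells (cluster 11) held 24 of the 35 Tenm2 cells and 4 of the 55 Col28a1-only cells. Its leading genes were Stra6, Tenm2, Cldn1, Sbspon, Kank4, Moxd1, Foxs1, Abcb1a, Foxd1 and Wnt6, and 5 of the 11 perineurial markers, 4 of the 8 endoneurial and 6 of the 20 Schwann markers counted for it (at least 1.5-fold over the other clusters and in at least 10% of its cells), at 611, 446 and 1428 CPM in sum. Apod, Tenm2 and Col28a1 stood at 20476, 322 and 225 CPM in it against 1715, 3.21 and 10.4 CPM in the other clustered cells, a description only, since 28 of its cells were chosen by these genes.

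Most cells of that cluster were not members. Of the 144 that were not, 117 had under 2 UMIs of Tenm2 and Col28a1, 49 had under 3 Apod UMIs and 37 carried Cdh19 or Sox10, and the median depth of the cluster was 3071.5 UMIs. The cluster also held 14 Schwann-gated cells and 42 predicted doublets. Of its cells outside the gate that had no Schwann or tendon gene, 9 carried Col28a1, 20 carried Tenm2 without it and 71 carried neither. In this order the perineurial genes summed to 668, 1456 and 165 CPM, with a UMI in 2, 11 and 24 of the cells, and the macrophage markers to 6379, 7694 and 11938 CPM.

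The genes that divided the Tenm2 cells did not all divide the 9 and 20 cells. Slc2a1 had a ratio of 0.893 (0.377 to 1.90) of cells with Col28a1 to cells without, where the Tenm2 cells had 0.148 (0.0594 to 0.322). Pdgfra had 1.12 (0.111 to 6.29) where they had 9.22 (3.40 to 35.0), but these intervals overlap, so it cannot be placed. Other genes kept their direction. Itga6 had 0.321 (0.0365 to 1.31) where they had 0.301, and Tjp1 0.361 (0.0703 to 1.17) where they had 0.276. Col15a1 had 3.85 (1.22 to 12.5) where they had 12.2, and Cxcl14 27.0 (8.19 to 140) where they had 6.39. Wif1 had 1 UMI in each. Stra6 had 1 against 45 UMIs, 40 of them in 1 cell, whereas in the Tenm2 cells it had 28 against 9. Sfrp5 had 0 against 116 UMIs, 111 of them in 1 cell.

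The 11 Tenm2 cells outside that cluster were shallower, with a median of 3896 UMIs, and held fewer perineurial transcripts. Their perineurial sum was 200 CPM (100 to 358) and their macrophage sum 7468 CPM, and 6 of them lay in clusters 2, 13 and 17 led by macrophage or monocyte genes. Of the 90 members 9 were among the predicted doublets, 7 of them Tenm2 cells, while 11.2% of all barcodes that passed the limits were.

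The Col28a1-only cells were spread over 13 clusters. The most, 16, lay in cluster 9, a group of 125 deep cells (median 16924 UMIs) led by Fetub, Ahsg, Dio3 and Syndig1, a further 11 in cluster 7 led by Trhde, Pde11a and Chrm2, and 8 in cluster 1 led by Dio3, Barx2 and Fetub. In the 16 cells of cluster 9 Apod ranged from 13 to 351 UMIs and Col28a1 from 2 to 13. None of the 3 clusters counted a perineurial marker.

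**Figure D4:**
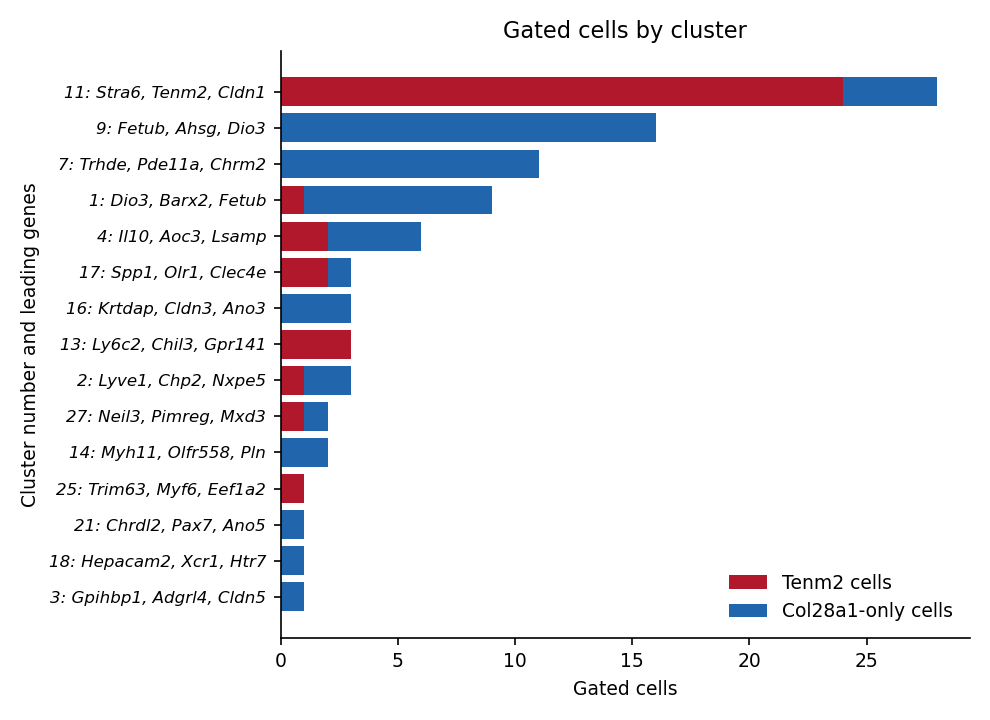
Number of gated cells (x) in each cluster that held at least 1 (y, with its first 3 leading genes), split into Tenm2 and Col28a1-only cells. Cluster 11 holds 24 Tenm2 cells, and the Col28a1-only cells are spread over 13 clusters with 16 in cluster 9.

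Part of the Col28a1-only cells held high levels of the genes of a Smoc2, Cxcl14 and Hsd11b1 fibroblast class. Against other stromal cells, Smoc2, a matricellular calcium-binding protein, stood at 1948 against 387 CPM, Hsd11b1, which regenerates active glucocorticoid, at 340 against 62.5 CPM, and Aldh1a2, the enzyme that makes retinoic acid, at 398 against 77.2 CPM. The 16 cells of cluster 9 held 956 of the 1462 Smoc2 UMIs, 161 of the 255 Hsd11b1 UMIs and 205 of the 299 Aldh1a2 UMIs, at 3986, 671 and 855 CPM. The other 39 cells stood at 991, 184 and 184 CPM, with medians of 3, 1 and 0 UMIs per cell, and 1 of them held 118 of their 506 Smoc2 UMIs. Cells gated on Smoc2, Cxcl14 and Hsd11b1 themselves, without Pi16 or Dpp4, held 603 CPM of Smoc2, 79.8 CPM of Hsd11b1 and 92.4 CPM of Aldh1a2. Against that gate the Col28a1-only cells had 85 genes higher (2.6%) and 40 lower (1.22%) of 3271, of which the limit of 50 CPM fixed 16 and 5. Among deep cells the 3 genes stood at 1983, 344 and 416 CPM in Col28a1-only cells and 434, 69.2 and 83.3 CPM in other stromal cells.

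Genes of fibrosis and denervation moved unequally in the 2 kinds of cell. Of 30 listed genes 29 passed 10 CPM, and 9 of these were higher by 2-fold or more in members and 0 lower, beside 3.64% and 3.71% of all genes, with a median log2 ratio of 0.36, and Ccn2, Timp1, Cthrc1 and Loxl3 led them. In Col28a1-only cells 7 of the 29 that passed 50 CPM were higher and 0 lower, beside 3.07% and 2.03% of all genes. In Tenm2 cells 5 of 27 were higher (Cthrc1, Ccl11, Thbs1, Acta2 and Timp1) and 8 lower, beside 6.41% and 8.42%, among them Il6 at 126 against 451 CPM, but Acta2 was seen in only 3 cells and 91.1% of it was in 1. Of the 28 that passed between the 2 kinds of cell, 2 were higher and 14 lower in Tenm2 cells, beside 6.55% and 8.98%.

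Signals to nerve and glia were mixed. Of 32 listed neurotrophic and glial ligands, of which 14 passed 10 CPM, 3 were higher by 2-fold or more in members (Nrg1, Bdnf and Mdk) and 2 lower (Pdgfc and Fgf10), beside 3.64% and 3.71% of all genes, with a median log2 ratio of 0.27. Brain-derived neurotrophic factor (Bdnf) stood at 128 CPM in 21 Col28a1-only cells, 13.6 CPM in 1 Tenm2 cell and 22.9 CPM in other stromal cells, and the heparin-binding cytokine midkine (Mdk) at 141, 194 and 42.4 CPM. Neuregulin 1 (Nrg1) rested on 1 cell with 92 of 93 UMIs. Pleiotrophin (Ptn), akin to midkine, stood at 150 CPM in Tenm2 cells, 18.7 CPM in Col28a1-only cells and 394 CPM in Schwann-gated cells.

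Of 23 receptors for such ligands 12 passed, of which 2 were higher (Gfra1 and Gfra2) and 1 lower (Met, fixed by the limit), beside the same shares of all genes. Gfra1, the coreceptor for the trophic factor GDNF, stood at 75.6 CPM in members and 20.5 CPM in other stromal cells, and 31.6% of it lay in 1 cell. GDNF itself had 2 UMIs in 1 member and stood at 145 CPM in Schwann-gated cells.

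Guidance ligands moved in both directions. Of 27, 19 passed, of which 4 were higher in members (Reln, Ntng1, Efnb2 and Sema6a) and 4 lower (Sema3c, Rspo3, Sema3a and Slit2), beside 3.64% and 3.71% of all genes. The calls of Reln, Ntng1, Rspo3 and Sema3a were fixed by the limit, and Ntng1 rested on 2 Tenm2 cells, as given above. Ephrin B2 (Efnb2) stood at 126 CPM in 13 Tenm2 cells and 14.7 CPM in 6 Col28a1-only cells, against 13.8 CPM in other stromal cells. Reelin (Reln), a secreted glycoprotein that guides migrating neurons, stood at 81.6 CPM in 9 Tenm2 cells, 2.67 CPM or 2 UMIs in 1 Col28a1-only cell and 1.01 CPM or 33 UMIs in other stromal cells, but Schwann-gated cells held 259 CPM.

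Retinoid genes appeared on both sides with different members. Of 21, 16 passed, of which 5 were higher in members (Stra6, Rdh10, Aldh1a2, Nr2f2 and Nr2f1) and 1 lower (Cyp26b1, which degrades retinoic acid), beside 3.64% and 3.71% of all genes. The calls of Stra6 and Cyp26b1 were fixed by the limit. Tenm2 cells held the uptake receptor Stra6 (126 CPM) and Rdh10 (446 CPM), with Aldh1a2 at 78.2 CPM. Col28a1-only cells held Rdh10 (189 CPM) and Aldh1a2 (398 CPM) and no Stra6 UMI.

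Further lists are given over the genes that passed 10 CPM in members against other stromal cells, where 3.64% of all genes were higher and 3.71% lower. Of 35 Wnt genes 21 passed, of which 5 were higher (Sfrp5, Wnt6, Wif1, Fzd2 and Ror1) and 2 lower (Rspo3 and Wnt11), the calls of Sfrp5, Wnt6, Wif1 and Rspo3 being fixed by the limit. Of 36 adhesion genes 20 passed, of which 6 were higher, with Adgrl3, Cdh11 and Nrxn3 (fixed by the limit) first, and 5 lower. Of 26 junction genes 12 passed, of which 6 were higher and 0 lower, but 4 of the 6 calls were fixed by the limit (Cldn1, Cldn15, Abcb1a and Cdh5). Cadherin 11 (Cdh11) stood at 371 CPM in Tenm2 cells and 140 CPM in Col28a1-only cells, against 62.8 CPM in other stromal cells. Of 44 listed transcription factors 32 passed, of which 8 were higher, 3 of them fixed by the limit (Etv4, Sox6 and Foxd1), and Osr1 lower, and Klf5 and Meox2 stood at 146 and 211 CPM in Tenm2 cells against 30.6 and 50.6 CPM in Col28a1-only cells. Of 40 collagens 22 passed, of which Col6a5, Col8a1, Col18a1 and Col11a1 were higher and Col4a5 lower, and Col18a1 stood at 180 CPM in Tenm2 cells, 48.0 CPM in Col28a1-only cells and 563 CPM in Schwann-gated cells. Of 13 tested basement membrane genes 2 were higher and 1 lower, of 13 guidance receptors 2 and 0, of 10 hedgehog genes 2 and 1, of 24 BMP and TGF-beta modulators 3 and 2, of 20 lipid transport genes 1 and 2, and of 11 genes of osteopontin and its receptors 2 and 1. None of the 16 genes of dissociation and early response differed by 2-fold.

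Markers of other cell types were checked beside these. Of the 20 Schwann markers 8 had no UMI in members, among them Erbb3 and Foxd3 and the rule genes Cdh19 and Sox10, which the gate set to 0. The sum over the list was 753 CPM (701 to 807) in members, 497 CPM in Tenm2 cells, 853 CPM in Col28a1-only cells, 613 CPM in other stromal cells and 8475 CPM in Schwann-gated cells, and 379 of the 640 UMIs of the Col28a1-only cells were of the sodium channel gene Scn7a. Smooth muscle and pericyte markers summed to 657 CPM in Tenm2 cells and 141 CPM in Col28a1-only cells, and 96 of the 126 Tagln UMIs behind the first lay in 1 cell. Muscle fibre markers summed to 435 and 107 CPM, and 50 of the 60 Acta1 UMIs of Tenm2 cells lay in 1 cell. The 4 haemoglobin genes summed to 37.4 CPM in Tenm2 cells, 1516 CPM in Col28a1-only cells and 1005 CPM in other stromal cells, with 469 of the 552 Hbb-bs UMIs of Col28a1-only cells in 1 cell, and to 8.61, 13.0 and 138 CPM among deep cells. Their part in the results was not tested.

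Transcripts of the sorted reporter were present in both kinds of member. Gfp stood at 119 CPM in Tenm2 cells (20 of 35 cells with a UMI), 103 CPM in Col28a1-only cells, 181 CPM in other stromal cells, 464 CPM in macrophage-gated cells and 500.0 CPM in Schwann-gated cells. After thinning, 40.0% (23.9 to 57.9%) of Tenm2 cells and 21.8% (11.8 to 35.0%) of Col28a1-only cells carried a Gfp UMI, against 31.7% of other stromal cells, 41.1% of Schwann-gated cells, 45.1% of macrophage-gated cells and 4.50% of endothelial-gated cells low in stromal genes. By share of cells in this draw the Tenm2 cells did not stand below other stromal cells, unlike by CPM. In a separate draw the share over all 90 members was 22.2%, so the shares vary with the draw. No order is read from the shares or from CPM. S100b stood at 22.02 CPM (14.0 to 33.0) in members, 12.2 CPM in other stromal cells and 20.5 CPM in Schwann-gated cells.

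Spp1 rested on few members. It stood at 377 CPM (341 to 416) in members and 93.6 CPM in other stromal cells, a ratio of 4.03 (3.62 to 4.48), but only 23 of the 90 cells carried it, and the 5 cells with the most (114, 85, 54, 34 and 28 UMIs) held 315 of the 394 UMIs. Without those 5 cells, picked for their Spp1 while other stromal cells kept theirs, the ratio was 0.871. Such a fall follows from the choice of cells, so it is a description and no turn is read from it. After thinning, 28.6% (14.6 to 46.3%) of Tenm2 cells and 10.9% of Col28a1-only cells carried a Spp1 UMI, against 11.02% of other stromal cells, 12.2% of macrophage-gated cells and 1.80% of endothelial-gated cells low in stromal genes.

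Macrophage-gated cells held Spp1 at 383 CPM, so their transcripts are given beside these cells. In the 3 cells with 114, 85 and 28 Spp1 UMIs, all Tenm2 cells of cluster 11 with Apod at 1953, 435 and 2305 UMIs, Tyrobp and Fcer1g were at 0, 1 and 0 UMIs. The cells with 54 and 34 Spp1 UMIs had 6 and 7 Tyrobp and Fcer1g UMIs and lay in cluster 17, led by Spp1, Olr1 and Clec4e. Summed over Tenm2 cells there were 306 Spp1 UMIs to 36 of Fabp5 (8.50 to 1), with 18 of the 36 in 1 cell. The same ratio was 0.186 in Col28a1-only cells, 0.773 in all members and 0.359 in macrophage-gated cells. The last sums all 7249 such cells, of which 20.6% carried Spp1. The source of the Spp1 transcripts was not tested. The 7 members with at least 10 Tyrobp and Fcer1g UMIs held 16 Spp1 UMIs. Among members with no Tyrobp or Fcer1g UMI, 33 cells, the ratio to other stromal cells without these UMIs was 47.9, but only 7 of the 33 carried Spp1, and 142 of their 168 UMIs lay in 2 cells.

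**Figure D5:**
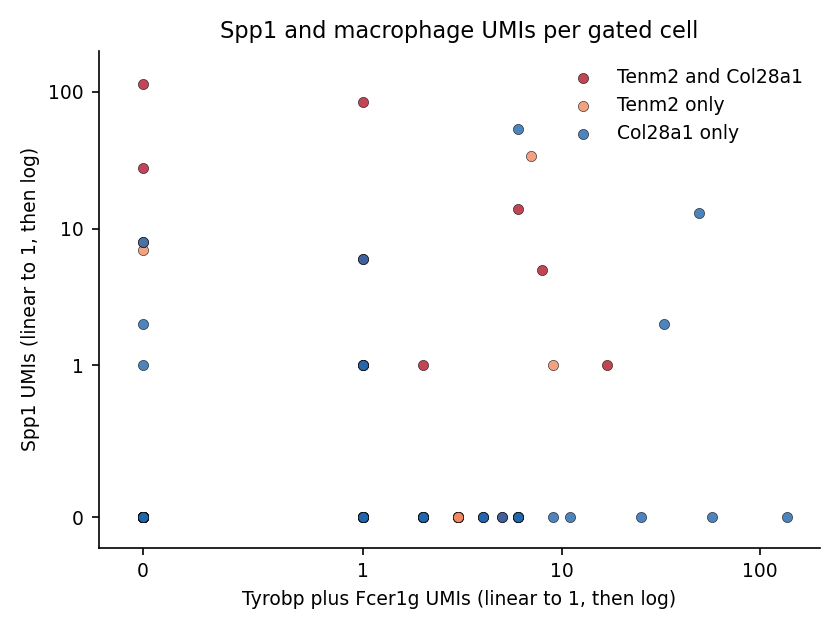
Spp1 UMIs (y) against Tyrobp plus Fcer1g UMIs (x) of each gated cell, both axes linear to 1 and logarithmic above. Points with equal counts lie on one another. The cells with 114, 85 and 28 Spp1 UMIs sit at 0 or 1 myeloid UMIs.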

How the data were processed

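Counts of unique molecular identifiers per gene and barcode were used as the authors deposited them, from 1 droplet library of sorted GFP+ cells with 170648616 UMIs in all. The file header names Cell Ranger 8.0.1 and the submitters' processing notes name Cell Ranger 7.1.0 and Seurat 4.30, and both GRCm38/mm10 and GRCm39 are named as the build, so coordinates are those of GENCODE M39 on GRCm39 for the same gene identifiers. Members and comparison groups were gated on these counts. UMIs were summed over the cells of a group and given as CPM with exact Poisson 95% intervals, ratios with exact conditional intervals and shares with exact binomial (Clopper-Pearson) intervals, all of which cover counting error only. A gene was called higher or lower at 2-fold or more, among genes with a mean of at least 10 CPM, or 50 CPM where the Tenm2 or Col28a1-only cells were compared alone. With 1 library in all no test was possible.

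The members and the 34 gene lists (572 genes) were chosen with earlier results of these data known, and the split by Tenm2 and the low-stromal endothelial gate after their values were seen. Genes were named by rule: the 15 highest ratios among called genes found in at least 20% of members, the 10 lowest found in at least 20% of other stromal cells, the marker and rule genes, and up to 4 called genes per list in each direction. Genes set against each other in the 2 kinds of member and in their divisions were chosen after their values were seen. Clusters were made with scanpy 1.11.5 (Leiden, resolution 1, 2000 variable genes, 30 components) without the 13 rule genes. Doublets were predicted with Scrublet, at 0.4% of barcodes for each 1000 barcodes, and kept in the main values. Shares of cells with a UMI were compared after thinning each cell to 2000 UMIs, in a separate random draw for each group. The ratio and interval code was checked on simulated data. Alternatives were other limits of the gate, of depth and of low values, no myeloid UMI, equal weight per cell and division by the median ratio.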

Additional observations from a re-analysis of the deposited data

How the results depend on the processing

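No paired analysis was possible because all groups were cells of the same 1 library. The member count of 90 was 54 at 5000 UMIs or more, 37 at 4 or more Tenm2 and Col28a1 UMIs, 33 without Tyrobp and Fcer1g UMIs and, in alternatives chosen after seeing the data, 35 with Tenm2 required and 39 when the rule was applied after thinning. The 320 genes higher in members became 516 and 523 at 4 or more Tenm2 and Col28a1 UMIs and without myeloid UMIs, 509 with cells weighted equally, 1428 and 92 at a mean of at least 1 or 50 CPM, and 930 with Tenm2 required. The 326 lower genes became 507 at 4 or more Tenm2 and Col28a1 UMIs, 1113 and 76 at 1 or 50 CPM, and 953 with Tenm2 required. The Spp1 ratio of 4.03 became 14.7 at 5000 UMIs and 5.16 at 4 or more Tenm2 and Col28a1 UMIs. It became 47.9 without myeloid UMIs (142 of 168 UMIs in 2 cells), 3.26 with equal weights and 11.1 with Tenm2 required. Without the 5 members of most Spp1 it was 0.871, a fall that picking cells by their Spp1 made certain. The perineurial median log2 ratio of 2.91 became 0.81 at 50 CPM and 4.74 with Tenm2 required. With Tenm2 required, Ccn2 turned to −0.91 and Cxcl14 to −0.089 (log2). The cause of these changes was not tested. Of 460 pairs of a named gene other than Spp1 and an alternative, 359 stayed within the interval of the reported ratio, 99 moved outside it with the same direction and 2 turned, those of Ccn2 and Cxcl14.

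Limits are the single library, the small numbers of cells (35 and 55), a gate on raw UMIs that favors deep cells, and transcripts of other cells in the droplets. No counts of the GFP- library were analysed here, so the share of such cells among all muscle cells is not given. Genes of few UMIs rest on single cells where stated.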
